A study of Drosophila melanogaster with 4 samples.

Results

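Transcripts of 24 genes for enzymes and transporters of xenobiotic metabolism were followed in Drosophila melanogaster heads after chronic feeding of pilocarpine. Pilocarpine is a plant alkaloid and an agonist of muscarinic acetylcholine receptors. The genes were taken by symbol, and the rule was set with earlier results of these data known. It required a value on at least 3 of the 4 arrays. It took current symbols that mark a cytochrome P450 (Cyp and a digit), a glutathione transferase (Gst), a UDP-glycosyltransferase (Ugt) or an alpha-esterase. Gclm and Gclc and the ABC transporters CG9663 and CG10226 were added by name. The members were 24 of the 1444 genes measured on at least 3 arrays. The array listed 117 genes that fit these symbols, and 24 of them had a value after the authors' filters on spots, beside 1449 of all 6793 listed genes. The members comprised 14 of 72 listed P450 genes, 6 of 23 glutathione transferase genes, 1 of 6 alpha-esterase genes, Gclm and both transporters. None of the 12 listed UDP-glycosyltransferase genes had a value, nor did the 1 listed cyclophilin that shares the Cyp prefix, and Gclc was not analysed here.

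The treated flies were unmated Oregon-R wild-type males, 3 to 4 days old at the start, kept for 7 days on food with 1.5 mg/ml pilocarpine, and the untreated flies were like males kept for 7 days on normal food. Vials held 30 flies, and RNA came from 8 pools of whole heads, so that tissues within the head are not resolved and a change in the share of a cell type cannot be told apart from a change in RNA per cell. On each of 4 two-colour cDNA arrays a pilocarpine pool was hybridised with the normal food pool of its set, which makes 4 biological replicates per the labels. The pilocarpine pool carried Cy5 on replicates 1 and 2, and Cy3 on the other two. The files hold 1 ratio per spot and no channel intensities, so the level of a transcript in either group is unknown here.

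Insects handle foreign chemicals in steps. Cytochrome P450 enzymes oxidise a compound and esterases cleave it, transferases then attach glutathione or a sugar, and ABC transporters move products out of the cell. In flies these genes are best known from the midgut, the Malpighian tubules and the fat body, and many are induced by plant toxins, drugs or insecticides. Some P450 and transferase genes serve hormone or cuticle synthesis instead.

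Values are given as log2 of pilocarpine over normal food, with each array centred on its median, so that 1 is a 2-fold difference and 0 is no difference from the median probe. The labels do not state which channel is the numerator on the swapped arrays. Values are therefore given in both readings. The Cy5/Cy3 reading takes the deposited ratio as Cy5 over Cy3, the default of the GenePix software, and turns the sign of replicates 3 and 4. The treated/untreated reading takes the deposited ratio as pilocarpine over normal food on every array. The first was used as the likely one on that default alone, and the direction is not settled. Replicates 1 and 2 have the same values in both readings, and so do the sizes of all values.

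Pilocarpine feeding was accompanied by no change of a xenobiotic gene that passed the test. In the Cy5/Cy3 reading 0 of the 24 genes passed as higher and 0 as lower (limma, Benjamini-Hochberg adjusted p over all 1444 genes, threshold 0.05), beside 0.139% and 0% of all genes. In the treated/untreated reading 0 of the 24 passed, beside 0% of all genes in either direction. At an unadjusted limma p under 0.05 stood 5 of the 24 in the Cy5/Cy3 reading, beside 7.41% of all genes, and 2 of the 24 in the other reading, beside 8.73%. The 5 included CG9663 and CG10226, which were added by name with earlier results of these data known. This count is thus no independent comparison with all genes, nor are later counts that include either gene. A reimplementation of one-class SAM on the centred gene values also called 0 of the 24 in the Cy5/Cy3 reading. The study names SAM 3.0, which was not rerun.

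The 24 genes lay on both sides of 0 in each reading. Their median log2 ratio was -0.04 in the Cy5/Cy3 reading, where 10 lay above 0 and 14 below, and the median of all 1444 genes was -0.01. The treated/untreated reading gave a median of -0.09, again with 10 above and 14 below, and that of all genes was 0.00. The sign of the mean differed between the readings for 16 of the 24 genes, beside 64.8% of all genes. The 95% confidence interval of the limma fit lay within a 2-fold change in both directions for 21 of the 24 genes, beside 97.2% of all genes, and in the other reading for 20, beside 96.5%.

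**Figure D1:**
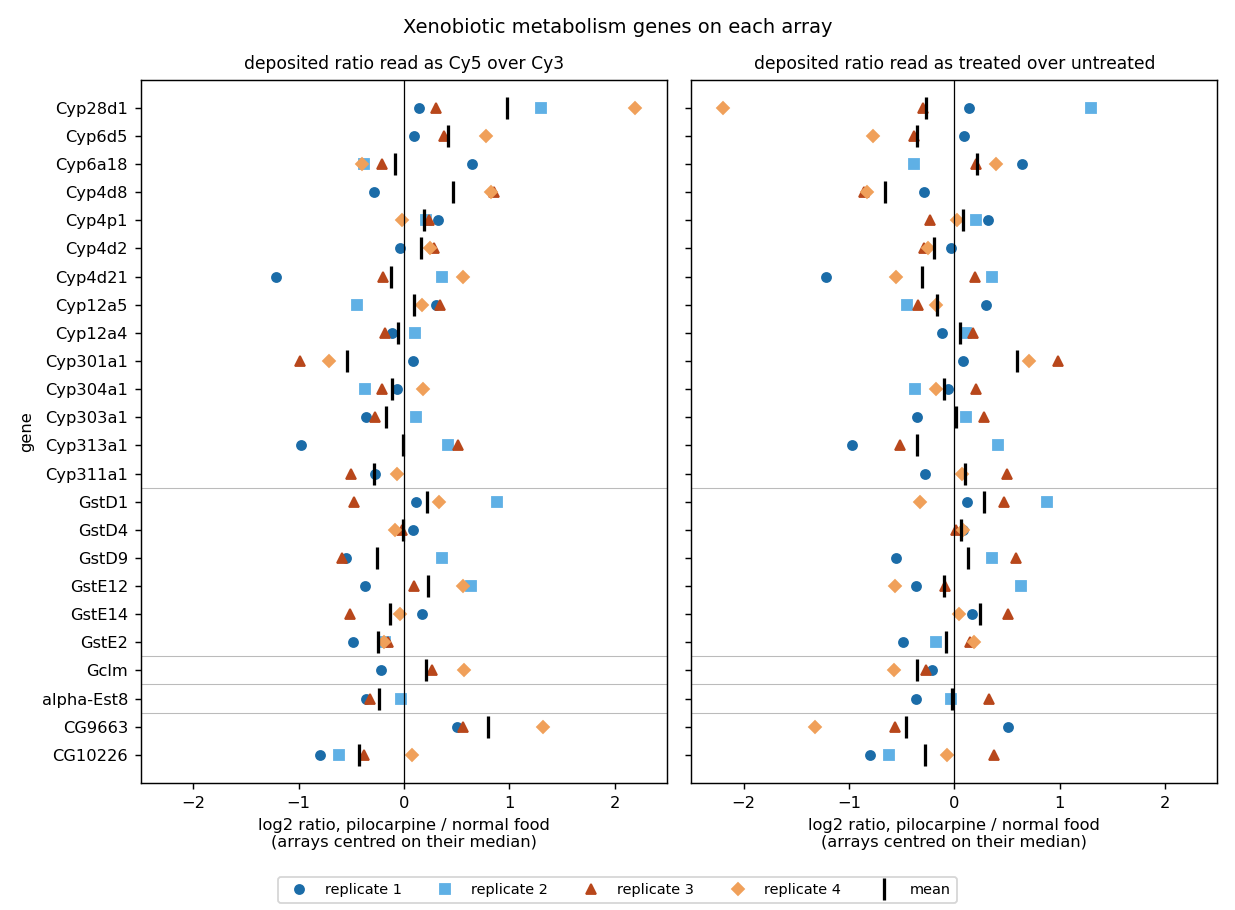
Log2 ratio of pilocarpine over normal food (x axis, arrays centred on their median) for each of the 24 genes (rows, grouped as P450 genes, glutathione transferase genes, Gclm, alpha-Est8 and ABC transporters) on replicates 1 to 4, with the mean as a black bar. The left panel has the Cy5/Cy3 reading and the right panel the treated/untreated reading; Cyp28d1 has the widest range, with 2.19 on replicate 4 at left and -2.19 at right.

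The P450 gene with the highest mean was Cyp28d1 in the Cy5/Cy3 reading and Cyp301a1 in the treated/untreated reading. Cyp28d1 belongs to the microsomal CYP3 clan, which holds many insect detoxification enzymes, and variation at its locus has been linked to nicotine resistance in this species. Its log2 ratios in the Cy5/Cy3 reading were 0.14, 1.30, 0.30 and 2.19 on replicates 1 to 4. All 4 were above 0, with replicates 2 and 4 high and replicates 1 and 3 close to the array median. The mean was 0.98 ± 0.96 (SD, n = 4), a 1.98-fold ratio with a 95% interval of 0.38 to 1.58 in log2, and it did not pass (limma adjusted p = 0.324). It ranked 4 of 1444 by mean log2 ratio in that reading, and 1241 of 1444 in the treated/untreated reading. Read as treated over untreated, replicates 3 and 4 were at -0.30 and -2.19, the mean was -0.26 ± 1.45 (SD, n = 4; limma adjusted p = 0.911), and the arrays of unlike orientation lay on opposite sides of 0.

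Replicate 4 carried much of the size of Cyp28d1, where it had the largest log2 ratio in size of the 1245 genes measured there. The duplicate spots of Cyp28d1 differed by at most 0.24 on any array. Without replicate 4 the mean in the Cy5/Cy3 reading was 0.58 (limma adjusted p = 0.991). Without replicate 3 it was 1.21 and passed (limma adjusted p = 2.86e-06). The transporter gene CG9663, then on replicates 1 and 4 alone, also passed, which made 2 of the 24 genes beside 1.11% of all genes. In that fit limma gave all genes on the same number of arrays 1 shared spread, so its p-values do not rest on a gene's own SD.

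The other genes of the CYP3 clan were Cyp6d5 and Cyp6a18, both of the CYP6 family that is known for insecticide metabolism. Cyp6d5 was measured on 3 arrays, at 0.10, 0.38 and 0.77 on replicates 1, 3 and 4 in the Cy5/Cy3 reading, all above 0. Its mean was 0.42 ± 0.34 (SD, n = 3; limma adjusted p = 0.666), while the treated/untreated reading gave -0.35 ± 0.44 with replicates 3 and 4 below 0. Cyp6a18 was at -0.08 ± 0.49 and 0.22 ± 0.43 in the Cy5/Cy3 and the treated/untreated reading (SD, n = 4 each). Replicate 1 stood alone on the high side in the first, at 0.64, with the others between -0.40 and -0.20.

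Of the CYP4 family, whose best-known members hydroxylate fatty acids, 4 genes were measured, and 3 had means above 0 in the Cy5/Cy3 reading and 1 in the other. Cyp4d8 was at -0.29, 0.86 and 0.83 on replicates 1, 3 and 4 in the Cy5/Cy3 reading, with a mean of 0.47 ± 0.65 (SD, n = 3; limma adjusted p = 0.749). Leaving out 1 array moved that mean between 0.27, without replicate 3, and 0.84, without replicate 1. Its replicates of one orientation, 3 and 4, were alike and replicate 1 lay on the other side of 0. Read as treated over untreated, Cyp4d8 was below 0 on all its arrays, at -0.29, -0.86 and -0.83, with a mean of -0.66 ± 0.32 (SD, n = 3), a 0.634-fold ratio. This was the 5th lowest of the 1444 means in that reading and did not pass (limma adjusted p = 0.560).

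Cyp4d2 showed the same division on a smaller scale, at -0.03, 0.29 and 0.25 in the Cy5/Cy3 reading, with a mean of 0.17 ± 0.17 (SD, n = 3). It was below 0 on its 3 arrays in the treated/untreated reading, with a mean of -0.19 ± 0.14. Cyp4p1 had means above 0 in both readings, 0.19 ± 0.15 and 0.08 ± 0.24 (SD, n = 4 each), and in the Cy5/Cy3 reading only replicate 4 was below 0, at -0.02. Cyp4d21, also known as sxe1, is a male-biased P450 gene of the head fat tissue that has been linked to courtship. Its values in the Cy5/Cy3 reading were -1.22, 0.36, -0.20 and 0.56, the means were -0.12 ± 0.80 in that reading and -0.30 ± 0.73 in the other (SD, n = 4 each), and replicate 1 was far below the other arrays. Its duplicate spots differed by 0.67 on replicate 2, the widest gap among the 24 genes.

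Among the mitochondrial P450 genes Cyp301a1, which acts in the formation of the adult cuticle, had the widest departure from 0. In the Cy5/Cy3 reading it was at 0.08, -0.99 and -0.71 on replicates 1, 3 and 4, with a mean of -0.54 ± 0.56 (SD, n = 3; limma adjusted p = 0.624). Leaving out 1 array moved that mean between -0.85, without replicate 1, and -0.31, without replicate 3. Under the treated/untreated reading it was above 0 on all 3 arrays, at 0.08, 0.99 and 0.71. The mean of 0.59 ± 0.46 (SD, n = 3; limma adjusted p = 0.560), a 1.51-fold ratio, ranked 5 of 1444. Replicate 1 was near 0 and the 2 swapped arrays were large in the same direction, so that the direction of this gene rests on the reading of the swap.

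Cyp12a4, whose overexpression gives resistance to the insecticide lufenuron, and Cyp12a5 are next to each other in the genome in the Release 6 plus ISO1 MT gene table. Cyp12a4 was at -0.06 ± 0.15 (SD, n = 3) and Cyp12a5 at 0.09 ± 0.37 (SD, n = 4) in the Cy5/Cy3 reading. In the other reading they were at 0.06 ± 0.15 and -0.16 ± 0.33. On replicate 2 Cyp12a4 was at 0.11 and Cyp12a5 at -0.45. The arrays carry cDNA probes, and cross-hybridisation between related genes such as these was not tested.

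The remaining P450 genes had means between -0.28 and -0.01 in the Cy5/Cy3 reading. Cyp303a1, which is needed for the structure of external sense organs, was at -0.17 ± 0.25 in the Cy5/Cy3 reading and 0.01 ± 0.33 in the other (SD, n = 3 each). Cyp304a1 was at -0.12 ± 0.23 and -0.10 ± 0.24 in the same order (SD, n = 4 each). Cyp311a1 was below 0 on its 3 arrays in the Cy5/Cy3 reading, at -0.28, -0.50 and -0.07, with a mean of -0.28 ± 0.22 (SD, n = 3; limma adjusted p = 0.851), and at 0.10 ± 0.39 in the other reading. Cyp313a1 varied most among these 4, with -0.97, 0.42 and 0.52 on replicates 1 to 3 and a mean of -0.01 ± 0.83 (SD, n = 3), and with -0.36 ± 0.71 in the treated/untreated reading. Of all 14 P450 genes 6 lay above 0 and 8 below in each reading, and the sign of the mean differed between the readings for 10, beside 64.8% of all genes.

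The glutathione transferase genes had means of -0.26 to 0.23 in the Cy5/Cy3 reading and -0.10 to 0.28 in the treated/untreated reading, and none passed (lowest limma adjusted p = 0.828 and 0.699). GstD1 encodes an abundant delta-class enzyme that can break down DDT. It was at 0.12, 0.88, -0.47 and 0.33 in the Cy5/Cy3 reading, which gave 0.21 ± 0.56, and at 0.28 ± 0.52 in the other (SD, n = 4 each), with replicate 2 highest in both. GstD9, the neighbouring delta-class gene, was at -0.55, 0.36 and -0.59 on replicates 1 to 3 and averaged -0.26 ± 0.53, and 0.13 ± 0.60 in the other reading (SD, n = 3 each).

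GstD4, which lies in the same gene cluster, had the lowest SD over arrays of the 24 genes. Its log2 ratios were 0.08, -0.02 and -0.09 in the Cy5/Cy3 reading, with a mean of -0.01 ± 0.08 (SD, n = 3) and a 95% interval of -0.39 to 0.37. All 3 were in the treated/untreated reading just above 0 and averaged 0.06 ± 0.04. For GstD4 the arrays thus differed by little in either reading.

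Of the epsilon class, GstE2 was below 0 on all 4 arrays in the Cy5/Cy3 reading, at -0.49, -0.18, -0.15 and -0.19. On replicate 2 its duplicate spots differed by 0.64. Their deposited values, -0.98 and -0.34, lay on opposite sides of the array median of -0.48. The mean of -0.25 ± 0.16 (SD, n = 4) was a 0.841-fold ratio with an interval of -0.57 to 0.07 (limma adjusted p = 0.828). Replicates 3 and 4 were above 0 in the treated/untreated reading, where the mean was -0.08 ± 0.32. GstE12 was at 0.23 ± 0.47 and -0.10 ± 0.53 in the 2 readings (SD, n = 4 each), with replicate 1 below 0 and replicate 2 above 0 in both.

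GstE14, also called Nobo, acts in ecdysteroid synthesis rather than in detoxification. It was at 0.17, -0.51 and -0.04 on replicates 1, 3 and 4 in the Cy5/Cy3 reading, with a mean of -0.13 ± 0.35 (SD, n = 3). In the other reading it was above 0 on its 3 arrays, at 0.24 ± 0.24 (SD, n = 3; limma adjusted p = 0.699).

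Gclm encodes the modifier subunit of glutamate-cysteine ligase, the enzyme that starts glutathione synthesis. In the Cy5/Cy3 reading it was at -0.21, 0.27 and 0.57 on replicates 1, 3 and 4, with a mean of 0.21 ± 0.40 (SD, n = 3; limma adjusted p = 0.917), and the sides of 0 differed between the dye orientations. The treated/untreated reading put Gclm below 0 on all 3 arrays, with a mean of -0.35 ± 0.19 (SD, n = 3; limma adjusted p = 0.586) and an interval of -0.72 to 0.02. The carboxylesterase gene alpha-Est8 was at -0.36, -0.03 and -0.33 on replicates 1 to 3 in the Cy5/Cy3 reading, all below 0, and averaged -0.24 ± 0.18 (SD, n = 3; limma adjusted p = 0.903). Replicate 3 was at 0.33 in the other reading, which left a mean of -0.02 ± 0.34.

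The ABC transporter genes lay on opposite sides of 0 in the Cy5/Cy3 reading. CG9663 encodes a transporter of the ABCG family, to which the eye pigment transporter White belongs. It was above 0 on its 3 arrays, at 0.51, 0.56 and 1.32 on replicates 1, 3 and 4, with a mean of 0.80 ± 0.46 (SD, n = 3), a 1.74-fold ratio. The interval was 0.35 to 1.24 and the limma adjusted p of 0.292 was the lowest of the 24 genes. Read as treated over untreated, CG9663 was at 0.51, -0.56 and -1.32, with a mean of -0.46 ± 0.92 (SD, n = 3; limma adjusted p = 0.704). Replicates 3 and 4 then lay opposite to replicate 1. Without replicate 3, and so on replicates 1 and 4 alone, CG9663 passed in the Cy5/Cy3 reading at 0.91 (limma adjusted p = 0.0262). This was the fit with a shared spread described above for Cyp28d1. Without replicate 4, and so on replicates 1 and 3 alone, the mean of CG9663 was 0.53 (limma adjusted p = 0.991).

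CG10226 encodes a transporter of the ABCB family, the family of P-glycoprotein. It was at -0.80, -0.62, -0.38 and 0.07 on replicates 1 to 4 in the Cy5/Cy3 reading, below 0 on all arrays but replicate 4. The mean was -0.43 ± 0.38 (SD, n = 4; limma adjusted p = 0.624), a 0.742-fold ratio. The treated/untreated reading gave -0.28 ± 0.53 (SD, n = 4, limma adjusted p = 0.708), so the mean of CG10226 kept its sign. Among all genes the sign differed between the readings for 64.8%. Replicates 1 and 2, which do not depend on the reading, were both below -0.60. Replicates 3 and 4 lay on opposite sides of 0 in either reading, so the kept sign rests on replicates 1 and 2.

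**Figure D2:**
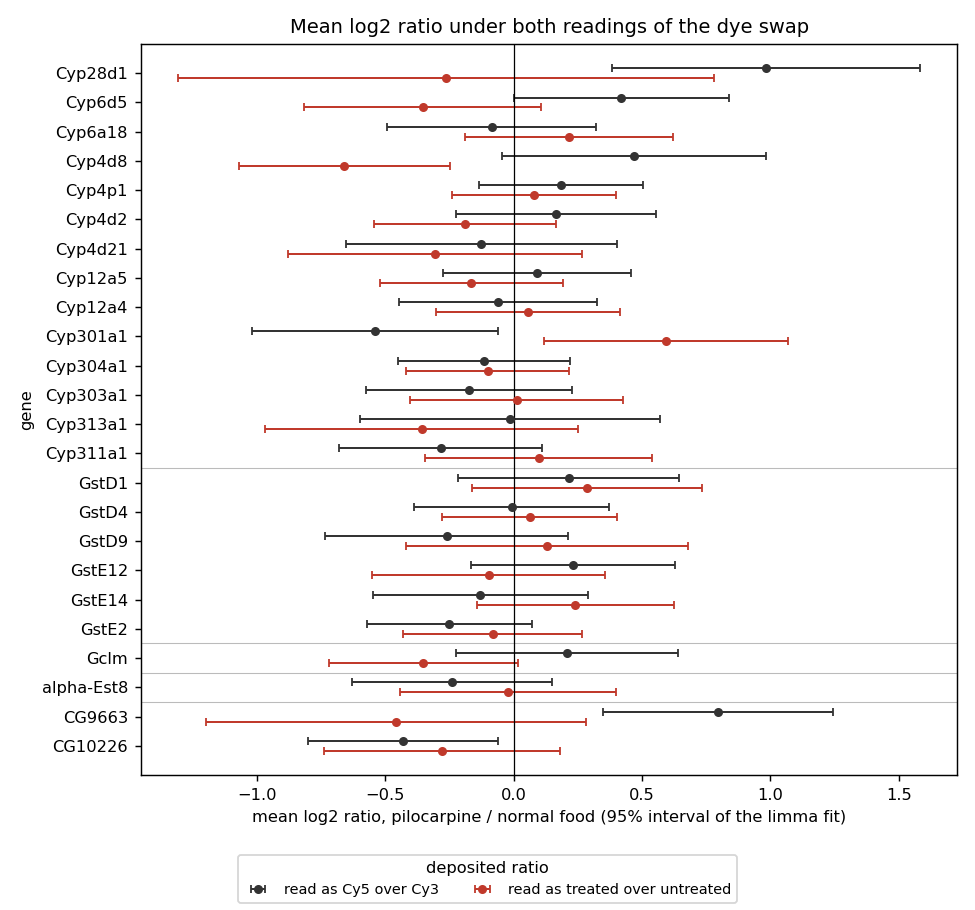
Mean log2 ratio of pilocarpine over normal food (x axis) with the 95% confidence interval of the limma fit for each of the 24 genes (rows), in black for the Cy5/Cy3 reading and in red for the treated/untreated reading. Cyp28d1, CG9663, Cyp4d8 and Cyp301a1 lie on opposite sides of 0 in the 2 readings, and no gene passed the adjusted test in either.

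Signs shared over all arrays of a gene were about as common in the 24 genes as among all 1444 genes. A shared sign is easier to reach on 3 arrays than on 4. The counts were not matched for this, and 10 of the 24 genes were on 4 arrays, beside 748 of all 1444. In the Cy5/Cy3 reading 3 were above 0 on all their arrays (Cyp28d1, CG9663 and Cyp6d5), beside 8.73% of all genes, and 3 were below (GstE2, Cyp311a1 and alpha-Est8), beside 9.07%. Under the treated/untreated reading 3 were above on all (Cyp301a1, GstE14 and GstD4), beside 10.8%, and 3 below (Cyp4d8, Cyp4d2 and Gclm), beside 12.6%. No gene could be in the same set in both. All 24 had values on replicates 1 and 3, and only the sign of replicate 3 turns between the readings there. Means of 0.4 or more in size were found for 6 of the 24 in the Cy5/Cy3 reading, beside 7.41% of all genes, and for 3 in the other, beside 8.03%. CG9663 and CG10226, which were added by name, were both among the 6, and CG9663 was among the 3.

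Arrays of equal dye orientation can be compared without choosing a reading. Replicates 3 and 4 had the same sign for 14 of the 19 genes measured on both, beside 61.5% of all genes. Among the 14 were Gclm, Cyp6d5, Cyp4d2 and CG9663, which have nearby spot numbers with local medians below 0 on both arrays, as given below. The part of place in this agreement was not tested. Across these genes, which share 2 arrays and are not independent replicates, Pearson's r was 0.64 (n = 19), and 0.40 over 1245 genes. Replicates 1 and 2 had the same sign for 7 of 15 genes, beside 45.7% of all genes, with an r of -0.04 (n = 15), and -0.05 over 947 genes. Cyp4d8, CG9663 and Cyp301a1 were far from 0 on both replicates 3 and 4, at 0.56 to 1.32 in size. With local medians subtracted, as described below, CG9663 was only at 0.12 on replicate 3 in the Cy5/Cy3 reading. Cyp4d8 was then at 0.84 and Cyp301a1 at -0.61 on that array. On replicates 1 and 2 CG10226 was low on both, while Cyp28d1 and GstD1 were high on replicate 2 alone.

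**Figure D3:**
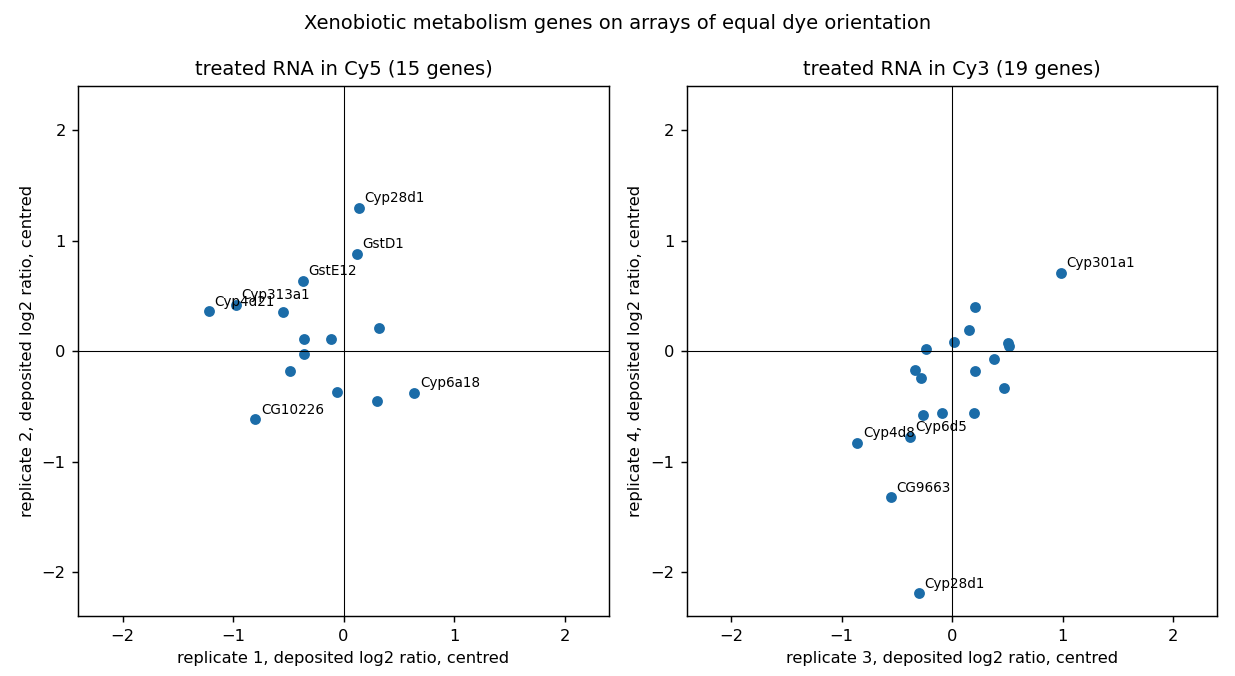
Deposited log2 ratios centred on the array median for replicate 1 (x axis) against replicate 2 (y axis) at left, for 15 genes, and replicate 3 against replicate 4 at right, for 19 genes. Points are genes, with those farthest from 0 named; at right Cyp4d8, Cyp6d5, CG9663 and Cyp28d1 lie below 0 on both axes and Cyp301a1 above, while at left no such diagonal is seen.

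Dye orientation was added to the fit for the 10 genes on all 4 arrays. In that fit 0 of the 10 passed for treatment in the Cy5/Cy3 reading, beside 0.535% of genes, and 2 of the 10 had an unadjusted p under 0.05, beside 11.2%. The lowest was Cyp28d1 (limma adjusted p = 0.160). For the dye term itself 0 of the 10 passed, beside 0% of genes, and 0 of the 10 had an unadjusted p under 0.05, beside 7.89%. Under the treated/untreated reading the treatment term and the dye term change places, so a dye effect on these genes cannot be told apart from a treatment effect until the direction is known.

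Duplicate spots show the error between spots within an array. Over 82 pairs of spots of the 24 genes the SD of a single spot was 0.14 in log2, and 0.17 over all listed probes. The median SD of a gene over arrays was 0.37 for the 24 genes and 0.30 for all genes in the Cy5/Cy3 reading. In the treated/untreated reading these were 0.37 and 0.27. The spread between arrays was thus wider than that between spots within an array. It includes both the difference between the parallel sets of vials and any error of a whole array, which cannot be told apart here.

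Place in spot number moved with several of these values. The layout of spots on the array was not known, so nearness here means nearness in spot number only. Gclm, Cyp6d5, Cyp4d2 and CG9663 had nearby odd spot numbers, 3539, 3545, 3549 and 3605, and none had a value on replicate 2. The median of up to 25 measured probes on each side in spot number, on the deposited sign, lay between -0.44 and -0.28 on replicate 3 and between -0.23 and -0.21 on replicate 4 for these 4 genes. Their own values on replicate 3 were -0.27, -0.38, -0.29 and -0.56 in that order. On replicate 4 they were -0.57, -0.77, -0.25 and -1.32, so that Gclm, Cyp6d5 and CG9663 lay well beyond their local medians there. Across all listed probes the Spearman correlation of a value with this local median was 0.42, 0.12, 0.40 and 0.27 on replicates 1 to 4, over 1490, 1006, 1505 and 1296 probes.

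With local medians subtracted, an alternative chosen after the data were seen, Cyp4d2 was at -0.02 and Gclm at 0.05 in the Cy5/Cy3 reading, Cyp6d5 at 0.26, CG9663 at 0.61 and Cyp28d1 at 1.08. None of the 24 passed, with 0.765 as the lowest limma adjusted p. Read as treated over untreated, Cyp4d2 was then at 0.04, Gclm at -0.18, Cyp4d8 at -0.53 and Cyp301a1 at 0.47, and again none passed (lowest limma adjusted p = 0.511). For Cyp28d1 the local median was 0.22 and 0.16 on replicates 3 and 4, opposite in sign to its own values there.

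**Figure D4:**
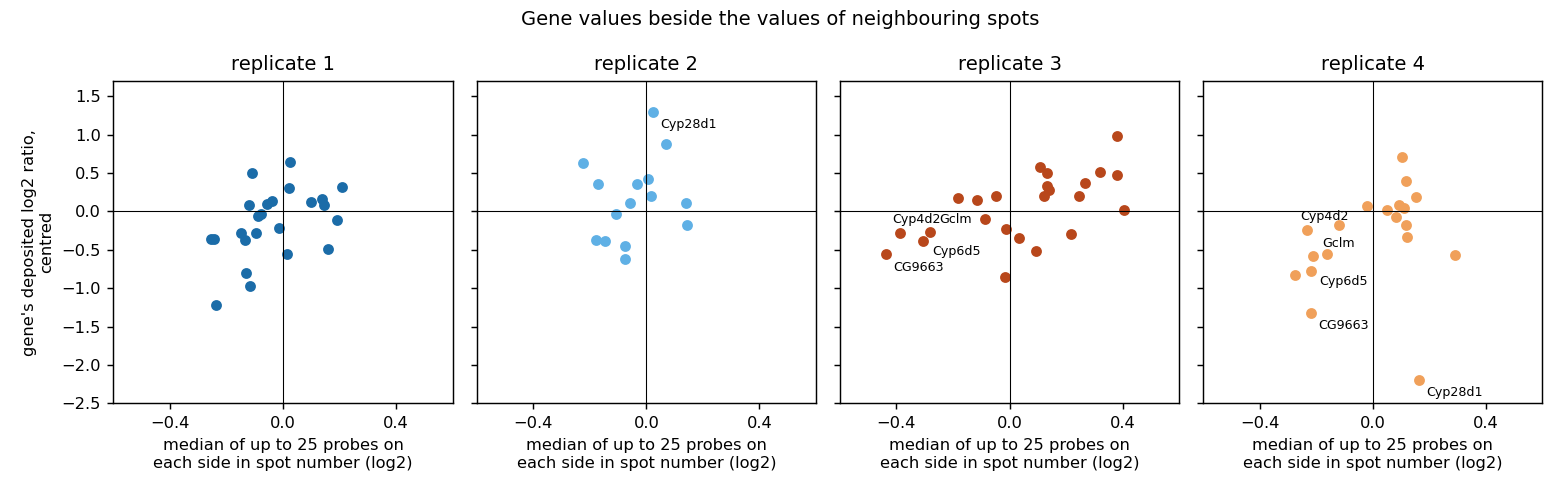
Deposited log2 ratio of each gene, centred on the array median (y axis), against the median of up to 25 measured probes on each side in spot number (x axis), with a panel for each of replicates 1 to 4 and a point for each of the 24 genes. On replicates 3 and 4 CG9663, Cyp6d5, Gclm and Cyp4d2 lie at lower left, with local medians between -0.44 and -0.21, and Cyp28d1 on replicate 4 lies at -2.19 beside a local median of 0.16.

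The array medians bear on the direction of these genes as well. The median deposited log2 ratio was -0.14, -0.48, -0.29 and -0.42 on replicates 1 to 4. Without centring, and in the treated/untreated reading, all genes had a median of -0.31 and 8 of the 24 genes passed as lower, beside 16.4% of all genes. They were Cyp4d8 at -0.94, CG9663 at -0.74, Cyp313a1 at -0.66, Cyp4d21 and Cyp6d5 at -0.64, Gclm at -0.63, CG10226 at -0.61 and Cyp28d1 at -0.60, with limma adjusted p between 0.00331 and 0.0464. With the arrays centred none of these 8 passed in that reading. Without centring in the Cy5/Cy3 reading none of the 24 passed, Cyp28d1 being lowest at 1.01 (limma adjusted p = 0.0755). That fit again gave genes on the same number of arrays 1 shared spread, and the fit with the 8 genes came near it, with 137 prior degrees of freedom, so their p-values rest little on a gene's own SD.

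Of 6 further lists of the same pathways, 16 genes outside the symbols above were measured and none passed in either reading. Among 5 enzymes of conjugation and hydrolysis (median 0.14 in the Cy5/Cy3 reading) the alcohol dehydrogenase gene Adh was at 0.53 ± 0.78 (SD, n = 4) and the sulfotransferase gene St3 at 0.16 ± 0.28 (SD, n = 3). In the other reading these were at -0.38 and -0.15. Of 4 genes of glutathione and thioredoxin chemistry (median 0.01) the thioredoxin reductase gene Trxr2 was at 0.07, and at 0.08 in the other reading. Of 5 other transporters (median 0.01) the organic anion transporter gene Oatp30B was at 0.44 ± 0.51 and MRP, an ABC transporter of conjugates, at -0.22 ± 0.36 (SD, n = 3 each), and at -0.48 and -0.33 in the other reading. Taldo, of the pentose phosphate pathway that supplies NADPH, was at 0.25 and -0.32, and maf-S, the small Maf partner of the stress regulator CncC, at 0.11 and -0.01. No gene of the list of P450 electron donors was measured.

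The arrays measured 6259, 4430, 6392 and 5534 spots on replicates 1 to 4. Of the 24 genes 9 lacked replicate 2 and 5 lacked replicate 4, beside 480 and 199 of all 1444 genes. Since ratios give no levels, tissue markers could show only which genes had a value: 4 of 7 listed photoreceptor genes, 2 of 4 neuronal and 1 of 5 glial genes did. Of 26 measured entries in 9 marker lists 1 passed in the Cy5/Cy3 reading, the fat body gene apolpp at 1.45 ± 0.67 (SD, n = 4; limma adjusted p = 0.0274), and none in the other, where apolpp was at -0.24. The 8 fat body markers had a median of 0.15 in the Cy5/Cy3 reading and -0.22 in the other. In the same 2 readings the medians were -0.29 and -0.04 for the 2 neuronal genes and -0.01 and 0.15 for the 4 photoreceptor genes, and the glial gene Gs2 was at 0.09 in both. The medians were 0.04 and -0.03 for 3 oenocyte genes and 0.01 and 0.12 for 5 digestive genes. Irk1, the 1 Malpighian tubule gene measured, was at -0.14 and 0.16, the testis gene ocn at 0.52 and 0.60 and the haemocyte gene Col4a1 at 0.13 and -0.34. The part of these tissues in the values of the 24 genes was not tested.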

How the data were processed

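Per the labels, the authors quantified the images in GenePix Pro 6.0 and normalized the ratios in Acuity 4.0, leaving out dim spots, and then filtered spots on saturation, flags, uniformity and signal over background before SAM 3.0. The authors' table holds a log2 ratio for each spot. Base 2 was inferred from the recurring ceiling of 16.61, which is log2 of 100000; its 11 cells were dropped. Only ratios were analysed here, and the number of arrays limits the precision.

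Adjacent odd and even spots list the same gene in all 7558 such pairs and were averaged, and each array was centred on its median over probes. The old platform annotation listed 1 gene for 1510 of the 3236 probes with a value, several for 13 and none for 1713. Symbols were updated by gene ID through the RefSeq table of Release 6 plus ISO1 MT, and no coordinates are given. Each of the 24 genes had 1 probe with values. The test, for genes on 3 or 4 arrays, was limma 3.58.1 (R 4.3.3): lmFit with an intercept against 0, eBayes, two-sided, and Benjamini-Hochberg over all genes. A check on simulated data drew independent normal values, so it could not test how well the model holds for these arrays. The prior had 9.27 degrees of freedom in the Cy5/Cy3 reading and 5.22 in the other. Alternatives changed the direction, centring, scale, dye term, arrays, spots, probes, moderation and test.

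Every gene is named with its mean in both readings. Values on each array are given where a gene passed, had 1 sign on all its arrays or had a mean of 0.4 or more in size in either reading, and for Gclm and the transporters; a few others were added after their values were seen. Members and lists were chosen with earlier results of these data known.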

Additional observations from a re-analysis of the deposited data

Results flagged for a closer look

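GstE2 on replicate 1, at a log2 ratio of -0.49 in the Cy5/Cy3 reading, lay far from the other 3 arrays, which were between -0.19 and -0.15. It was the 1 such case among the 10 genes measured on all 4 arrays, and chance gives about 1 in 20 of such groups. In the treated/untreated reading GstE2 was at -0.49, -0.18, 0.15 and 0.19 on replicates 1 to 4. Replicate 1 did not stand apart there, so the flag depends on the reading. The GstE2 value on replicate 2 averages duplicate spots that differed by 0.64.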

How the results depend on the processing

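The counts of passing xenobiotic genes, 0 higher and 0 lower in the Cy5/Cy3 reading, moved in 2 of the alternatives run: 2 passed as higher without replicate 3, and 8 as lower with the arrays not centred and replicates 3 and 4 not turned. In that last setting, chosen like the local medians after the data were seen, the median of the 24 was -0.42, 237 genes in all passed as lower and 0 as higher; the array medians enter every gene there. Leaving out 1 array gave 0 to 2 of the 24 as higher, and 0 to 16 of all genes as higher and 0 to 2 as lower, against 2 and 0. All genes passing as higher were 4 with the dye term (genes on 4 arrays only), 1 with odd spots, 1 with 4 arrays required, 1 with 1 probe per gene and 1 with SAM. They were 0 with replicates 3 and 4 not turned, with even spots, without moderation of the SD, over single probes, and with local medians in either direction. The test is already paired, since each ratio sets a pilocarpine pool against the normal food pool of its set, and no further replicate block could be added. Signal over background is not in the ratios, so dim and bright spots could not be weighed apart, and 4 arrays limit the precision.

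None of the genes below passed in the Cy5/Cy3 reading on all its arrays, CG9663 and Cyp28d1 passed there without replicate 3, and the cause was not tested beyond what each setting changes. With replicates 3 and 4 not turned, signs differed for CG9663 (-0.46), Cyp12a4 (0.057), Cyp12a5 (-0.16), Cyp28d1 (-0.26), Cyp301a1 (0.59), Cyp303a1 (0.012), Cyp311a1 (0.098), Cyp4d2 (-0.19), Cyp4d8 (-0.66), Cyp6a18 (0.22), Cyp6d5 (-0.35), Gclm (-0.35), GstD4 (0.062), GstD9 (0.13), GstE12 (-0.097) and GstE14 (0.24). With the same direction and no centring they differed for CG9663 (-0.74), Cyp12a5 (-0.50), Cyp28d1 (-0.60), Cyp301a1 (0.31), Cyp4d2 (-0.47), Cyp4d8 (-0.94), Cyp4p1 (-0.25), Cyp6d5 (-0.64), Gclm (-0.63), GstD1 (-0.046) and GstE12 (-0.43). With that direction and local medians subtracted they differed for alpha-Est8 (0.051), CG9663 (-0.20), Cyp12a4 (0.073), Cyp12a5 (-0.19), Cyp28d1 (-0.35), Cyp301a1 (0.47), Cyp303a1 (0.0035), Cyp311a1 (0.11), Cyp4d8 (-0.53), Cyp6a18 (0.23), Cyp6d5 (-0.16), Gclm (-0.18), GstD9 (0.10), GstE12 (-0.057) and GstE14 (0.051). In the Cy5/Cy3 reading local medians turned Cyp313a1 (0.056), Cyp4d2 (-0.015) and GstD4 (0.11). Without centring GstD4 (0.18) and GstE14 (0.062) changed sign, with scaled arrays GstD4 (0.0032), with odd spots Cyp6a18 (0.021) and GstD4 (0.022), and with even spots Cyp12a4 (0.054). Leaving out 1 array turned Cyp313a1 (-0.28 to 0.47), Cyp4d21 (-0.35 to 0.24), Cyp6a18 (-0.33 to 0.020), GstD1 (-0.0078 to 0.44), GstE14 (-0.28 to 0.063) and GstD4 (-0.052 to 0.032).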
